A study of Mus musculus with 21 samples.

Results

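The genes followed here act along the lower to upper axis of the pharyngeal arches: Edn1, Ece1, Ednra, Hand1, Hand2, Gsc, Msx1 and Msx2. They were found by gene symbol in both deposited count tables, each symbol matched once in each table, and they make up 8 of the 24594 genes listed there. Edn1 encodes endothelin-1, a secreted peptide made mainly by arch epithelium. Ece1 encodes the enzyme that cuts its precursor into the active peptide, and Ednra the receptor by which neural crest cells of the arches receive it. Signalling through this receptor is known to give crest cells a lower (ventral) identity through Dlx5 and Dlx6, which act upstream of the transcription factor genes Hand1, Hand2 and Gsc. Msx1 and Msx2, homeobox genes that respond to BMP signals, are active in the same lower and distal domains.

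Gene expression was measured by RNA-seq in 21 mouse libraries of 7 groups with 3 biological replicates each, and the labels call every library cranial neural crest cells. In the genotype series (12 libraries), the second and the third pharyngeal arch (PA2 and PA3) were dissected at embryonic day E10.5. The embryos were wild type (WT) or HIRE1del/del. The latter lack both copies of HIRE1, a region with several super-enhancers that acts on Hoxa2 over a long distance. In PA3 of these embryos, the paper reports lower Hoxa3 as well as lower Hoxa2. In the stage series (9 libraries), crest cells of PA2 at E10.5 and of the outer ear (pinna) at E12.5 and E14.5 were sorted from wild type Wnt1::Cre;ROSARFP embryos, in which Wnt1-driven Cre switches on a red reporter in the crest lineage. The mice had a mixed C57Bl/6J;CD1 background, and each library pooled male and female embryos. No sort is described for the HIRE1 embryos, tissue was dissociated with trypsin up to E12.5 and with papain at E14.5, and the stage series was read single-end while the genotype series was read paired-end. Differences between the series were therefore not tested, and in the stage series the dissociation enzyme cannot be told apart from E14.5.

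Library totals ran from 25804446 to 32210131 counts in the genotype series and from 25814151 to 49058941 counts in the stage series. Values are CPM (read counts scaled to library totals of 1e6), further scaled within each table by the trimmed mean of M values (TMM). A count of 0 allowed up to 0.0631 to 0.117 CPM in 1 library (a limit of 3 counts), which covers counting error only. Hoxa2, a gene HIRE1 acts on, lay at 73.4 to 84.2 CPM in PA2 of WT and 4.75 to 7.09 CPM in PA2 of HIRE1del. In PA3 it lay at 56.1 to 65.1 against 22.1 to 25.6 CPM, so the genotype labels held in every library. Markers of blood and epithelium were lower in the sorted libraries. The 6 blood markers summed to 0.947 to 7.2 CPM in any stage library, against 1350 to 21600 CPM in the arches of the genotype series. The 7 epithelium markers summed to 11.1 to 27 CPM in the sorted libraries and to 263 to 777 CPM in the genotype series, which therefore held other cells than crest. In such bulk samples, fewer cells of a type and less RNA per cell cannot be told apart.

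The promoters of 7 of the 8 genes were found in RefSeq (GRCm38.p6), as 250 bases before and 50 after the gene start. Hand1 had no entry. The 4 printed here were chosen for what the data show. Hand2 was taken because its neighbour on the other strand, Hand2os1, fell with it. Msx1 and Msx2 were taken because these related genes took different courses with stage, and Gsc because it differed most between the arches. In Hand2 (chr8:57320733-57321032, plus strand), capitals mark the 125 bases from the RefSeq start of Hand2os1, read the other way, to that of Hand2. In Msx1 (chr5:37824536-37824835, minus strand) and Msx2 (chr13:53472731-53473030, minus strand) they mark CCAAT and the homeodomain cores TAATTA and TAATTG on either strand, and in Gsc (chr12:104473187-104473486, minus strand) TATAAA and CANNTG. Each is written 5′ to 3′ on the strand of its gene.
Hand2: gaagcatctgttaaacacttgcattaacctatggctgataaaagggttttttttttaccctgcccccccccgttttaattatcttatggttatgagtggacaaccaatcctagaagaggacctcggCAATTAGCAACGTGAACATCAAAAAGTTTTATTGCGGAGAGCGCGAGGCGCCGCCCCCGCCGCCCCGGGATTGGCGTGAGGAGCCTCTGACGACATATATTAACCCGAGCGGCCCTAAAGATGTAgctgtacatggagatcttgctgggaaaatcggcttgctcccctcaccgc
Msx1: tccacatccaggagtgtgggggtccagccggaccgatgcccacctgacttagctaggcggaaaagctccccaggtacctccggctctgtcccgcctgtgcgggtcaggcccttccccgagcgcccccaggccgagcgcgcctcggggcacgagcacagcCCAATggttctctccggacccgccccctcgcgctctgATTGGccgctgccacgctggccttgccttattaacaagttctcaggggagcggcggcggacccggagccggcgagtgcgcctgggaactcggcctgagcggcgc
Msx2: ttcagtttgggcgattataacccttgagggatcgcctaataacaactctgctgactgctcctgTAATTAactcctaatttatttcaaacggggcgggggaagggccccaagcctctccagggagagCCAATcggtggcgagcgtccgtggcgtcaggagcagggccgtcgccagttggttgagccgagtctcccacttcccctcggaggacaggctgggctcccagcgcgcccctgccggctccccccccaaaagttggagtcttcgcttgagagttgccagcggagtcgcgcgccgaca
Gsc: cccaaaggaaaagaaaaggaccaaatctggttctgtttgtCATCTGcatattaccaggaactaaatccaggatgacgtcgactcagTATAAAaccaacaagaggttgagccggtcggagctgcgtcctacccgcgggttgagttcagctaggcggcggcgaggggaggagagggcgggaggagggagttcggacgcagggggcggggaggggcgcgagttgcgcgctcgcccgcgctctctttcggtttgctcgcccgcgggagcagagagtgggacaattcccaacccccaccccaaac

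Both RefSeq starts of the Hand2 pair fit into 1 such window, with the start of Hand2os1 124 bases before that of Hand2. GENCODE starts Hand2os1 at 57324233, within Hand2, so this distance and the marked stretch hold for RefSeq only. Msx1 held CCAAT at -91 and -54 from its start and no homeodomain core, while Msx2 held CCAAT at -124 and TAATTA at -187. The Gsc window held TATAAA at -164 and CANNTG at -210. These offsets count from the RefSeq starts, which are 53472780 for Msx2 and 104473236 for Gsc. GENCODE starts Msx2 at 53473074, so by that model the whole printed Msx2 window lies within the gene. It starts Gsc at 104473330, inside the printed window, so the offsets of both genes hold for RefSeq only. Over 32851 RefSeq promoters of the same length, CCAAT was found in 37.4%, TATAAA in 13.6%, CANNTG in 72.3%, TAATTA in 5.29% and TAATTG in 8.0%, counting both strands and overlapping matches. These matches describe the letters of the windows and were not tested for use in the arch.

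None of the 8 genes changed with the HIRE1 deletion by the test used here. The question asked of this comparison was which genes respond to loss of HIRE1 in each arch. In PA2, 0 of 8 members passed an adjusted p under 0.05 (edgeR quasi-likelihood test, Benjamini-Hochberg over 14383 genes), where 0.438% of all genes did, and 1 of 8 had an unadjusted p under 0.05, beside 8.57% of all genes. In PA3, 0 of 8 passed, against 0.216% of all genes, and 0 of 8 had an unadjusted p under 0.05, beside 9.73% of all genes. The WT and HIRE1del values of every member overlapped in both arches, where 13.2% (PA2) and 14.3% (PA3) of all genes did not overlap. DESeq2 and limma-voom also called 0 of 8 in either arch. The median log2 fold change of the members was -0.15 in PA2 and -0.06 in PA3, beside -0.01 and 0 over all genes tested.

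The ligand gene Edn1 (chr13:42301476-42307990, plus strand) was read at 2.90, 2.70 and 1.66 CPM in replicates 1, 2 and 3 of PA2 WT and at 2.29, 2.49 and 1.29 CPM in PA2 HIRE1del. The third replicate was the lowest of each genotype and the groups overlapped. The difference was -0.25 on the log2 scale (95% interval -1.01 to 0.51, edgeR adjusted p = 0.895). In PA3 the values were 9.14, 7.68 and 7.18 CPM in WT and 9.39, 8.22 and 3.68 CPM in HIRE1del. One HIRE1del library lay below all others and the rest were mixed. The log2 fold change was -0.17 (-0.83 to 0.48, adjusted p = 0.895), and it was 0.14 without that library, HIRE1del replicate 3.

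Ece1 (chr4:137862237-137965229, plus strand), the converting enzyme, was among the most even members over replicates, at 111, 109 and 112 CPM in PA2 WT and 109, 106 and 96.7 CPM in PA2 HIRE1del. Its PA2 interval was also the narrowest, from -0.21 to 0.03 on the log2 scale around -0.09 (edgeR adjusted p = 0.722). The receptor gene Ednra (chr8:77663031-77724464, minus strand) lay at 33.5, 35.4 and 42.3 CPM in PA2 WT and at 35.5, 35.8 and 40.7 CPM in PA2 HIRE1del, and every HIRE1del value lay within the WT range. Its log2 fold change was 0.01 in PA2 (-0.30 to 0.32) and -0.06 in PA3 (-0.38 to 0.25).

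Hand1 (chr11:57828705-57832818, minus strand), a bHLH factor of the distal arch, came nearest to a change. It was read at 1.55, 3.93 and 3.54 CPM in PA2 WT and at 1.62, 2.26 and 0.924 CPM in PA2 HIRE1del. The lowest WT library lay within the HIRE1del range. The log2 fold change was -0.92 (SE 0.347, interval -1.67 to -0.18), with an unadjusted p of 0.0194 and an adjusted p of 0.444 in edgeR. Over the alternative settings and with each library left out it stayed between -1.25 and -0.65, with adjusted p from 0.195 to 0.927. In PA3 Hand1 was read at 9.57, 12.8 and 12.8 CPM in WT and at 10.6, 7.66 and 7.30 CPM in HIRE1del, a log2 fold change of -0.46 (-1.07 to 0.15, adjusted p = 0.632). Neither arch gave a call for Hand1, and the difference between the arches was -0.46 (-1.43 to 0.50, adjusted p = 0.911).

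Hand2 (chr8:57320983-57324633, plus strand), the bHLH factor most tied to the lower jaw and arch, was read at 57.8, 69.5 and 69.7 CPM in PA2 WT and at 54.3, 54.7 and 61.9 CPM in PA2 HIRE1del. Its log2 fold change was -0.21 (-0.52 to 0.11) in PA2 and 0.14 (-0.18 to 0.45) in PA3. Gsc (chr12:104471209-104473330, minus strand), a homeobox gene of the lower arch and the middle ear region, had the widest interval in PA2. It was read at 11.7, 22.5 and 22.5 CPM in PA2 WT and at 17.3, 15.8 and 39.6 CPM in PA2 HIRE1del. Its highest PA2 library was HIRE1del and its lowest WT, and the other 4 lay between. The log2 fold change was 0.36 (-0.53 to 1.25) and turned to -0.19 without PA2 HIRE1del replicate 3, so neither direction held.

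Msx1 (chr5:37820485-37824583, minus strand) was read at 47.6, 66.3 and 59.8 CPM in PA2 WT and at 51.1, 48.3 and 50.0 CPM in PA2 HIRE1del. Its log2 fold change was -0.22 in PA2 (-0.53 to 0.09) and 0.03 in PA3 (-0.28 to 0.33). Msx2 (chr13:53466884-53473074, minus strand) was read at 16.1, 16.4 and 14.7 CPM in PA2 WT and at 18.7, 17.4 and 12.4 CPM in PA2 HIRE1del, with a log2 fold change of 0.04 (-0.28 to 0.35). In PA3 it was read at 26.1, 22.3 and 30.1 CPM in WT and 24.3, 21.3 and 20.1 CPM in HIRE1del, a log2 fold change of -0.26 (-0.56 to 0.05, edgeR adjusted p = 0.59). The deletion effect was also compared between the arches, and 0 of 8 members differed (edgeR adjusted p from 0.897 to 0.99, 0 with an unadjusted p under 0.05), where 0.0487% of all genes did. DESeq2 and limma-voom called 0 of 8 there too. With 3 libraries a group, these intervals leave room for changes of the size of their bounds, and a p that misses the threshold does not show equal levels.

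**Figure D1:**
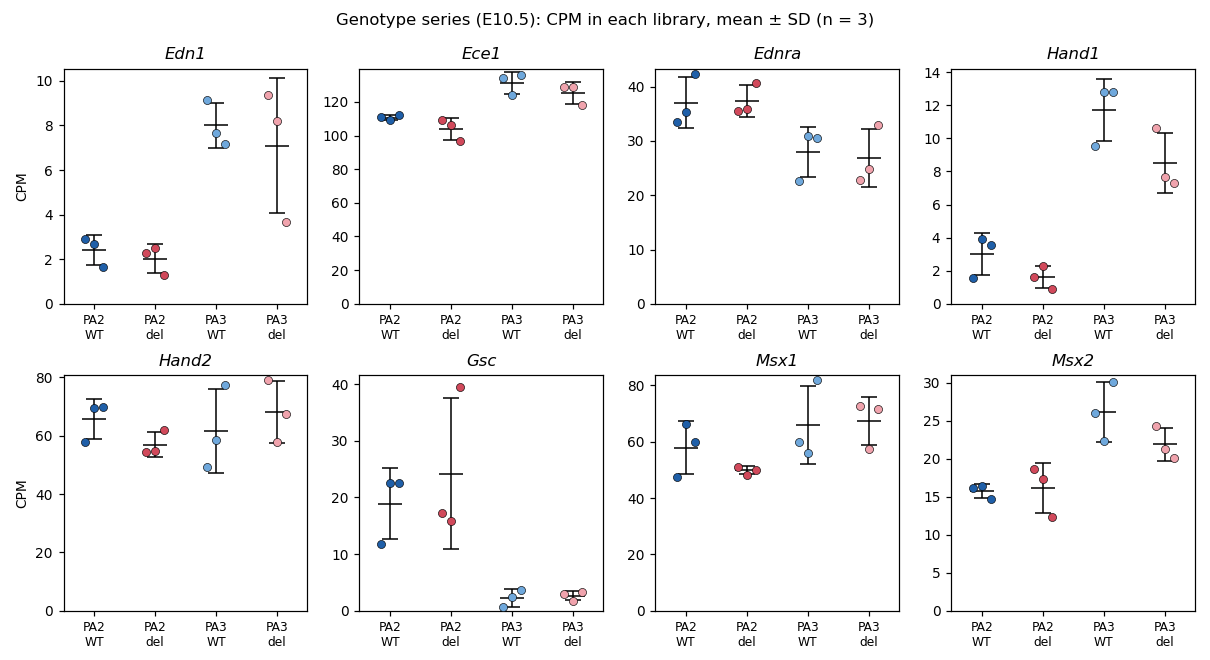
CPM of each member (vertical axis, linear from 0) in the 12 libraries of the genotype series, by arch and genotype (del, HIRE1del). Points are libraries and bars the mean ± SD of 3; Gsc lies at 11.7 to 39.6 CPM in PA2 and at 0.612 to 3.64 CPM in PA3, while Edn1, Hand1 and Msx2 lie higher in PA3.

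**Figure D2:**
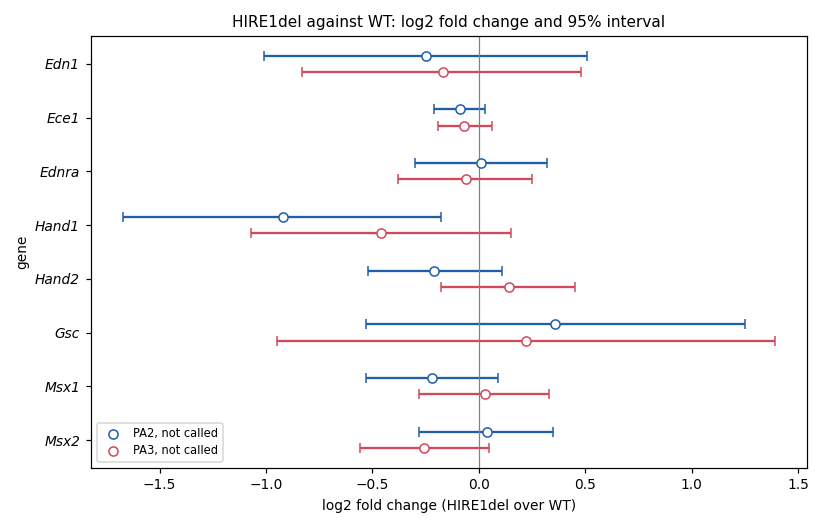
Log2 fold change of HIRE1del over WT for each member with its 95% interval, in PA2 (blue) and PA3 (red). Open points did not pass an adjusted p under 0.05: all 16 points are open, and the interval of Hand1 in PA2 alone leaves out 0.

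Genes known to act with the members were also compared between the genotypes. Of 10 tested genes of a wider endothelin list (other ligands, the second receptor, processing enzymes, G proteins and phospholipases), 0 were called by edgeR in PA2 and 0 in PA3, with 1 in each at an unadjusted p under 0.05. Of 8 genes taken as a lower arch list, 0 were called in either arch, with 4 and 3 at an unadjusted p under 0.05. Whether each of them answers endothelin was not tested. Of 8 upper arch genes and 9 tested BMP pathway genes, 0 were called in either arch. The unadjusted counts were 3 and 2 for the upper arch list and 2 and 1 for the BMP list, where 8.57% of all genes in PA2 and 9.73% in PA3 had such a p. The values of WT and HIRE1del did not overlap for 5 of the 8 lower arch genes in PA2 (Dlx5, Dlx6 and Nkx3-2 higher in HIRE1del, Dlx3 and Dlx4 lower) and 5 in PA3 (Dlx5, Dlx6 and Cited1 higher, Nkx3-2 and Foxc1 lower), beside 13.2% and 14.3% of all genes. They did not overlap for 3 and 4 genes of the endothelin list, 3 and 1 of the upper arch list and 3 and 1 of the BMP list. No marker of epithelium, endothelium, blood, heart muscle, mesoderm, neural cells or arch mesenchyme was called between the genotypes. In PA2, the 6 mesoderm markers summed to 88.8 to 96.7 CPM in WT and 65.7 to 80.9 CPM in HIRE1del, and the 7 neural and glial markers to 32.5 to 37.7 and 23.1 to 27.8 CPM, and their part in these values was not tested.

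Most of the same genes differed between the arches. The question here was how PA3 differs from PA2 at E10.5. In WT, 6 of 8 members passed the test, 4 higher in PA3 (Edn1, Ece1, Hand1, Msx2) and 2 lower (Ednra, Gsc), where 36.5% of all genes passed, 19.1% higher and 17.4% lower. The values of those 6 members did not overlap between the arches, nor did those of 49.9% of all genes. In HIRE1del, 7 of 8 passed, 5 higher (Msx1 in addition) and 2 lower, where 33.4% of all genes passed (18.7% higher, 14.7% lower) and 45.0% did not overlap. The median of the members was 0.22 in WT and 0.35 in HIRE1del on the log2 scale, beside 0 over all genes in both. Libraries of PA2 and PA3 with the same number deviated together, and a fit with the replicate number as a block made the same calls among the members.

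Gsc had the largest difference. Its levels given above for PA2 WT, 11.7 to 22.5 CPM, compare with 0.612, 2.47 and 3.64 CPM in replicates 1, 2 and 3 of PA3 WT. Every PA3 library lay far below every PA2 library. The log2 fold change was -3.05 (SE 0.489, edgeR adjusted p = 0.000373), or 8.29-fold lower in PA3. In HIRE1del, PA3 held 2.96, 1.71 and 3.30 CPM against 15.8 to 39.6 CPM in PA2, a log2 fold change of -3.19 (adjusted p = 0.000264). Gsc also varied most within PA3 WT, 5.95-fold from lowest to highest.

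Hand1 went the other way. It was 3.86-fold higher in PA3 than in PA2 in WT, a log2 fold change of 1.95 (SE 0.305, edgeR adjusted p = 0.000316), and the log2 fold change was 2.41 in HIRE1del (adjusted p = 0.00012). The related Hand2 did not pass: it was read at 49.3, 58.5 and 77.5 CPM in PA3 WT and 79.1, 57.9 and 67.4 CPM in PA3 HIRE1del. Those values span the PA2 levels, with a log2 fold change of -0.09 in WT (-0.40 to 0.23) and 0.26 in HIRE1del (-0.06 to 0.57). With the replicate number as a block, Hand2 gave -0.1 in WT (edgeR adjusted p = 0.399) and 0.25 in HIRE1del (adjusted p = 0.0515). Per kilobase of exon, Hand2 exceeded Hand1 by 15 to 31.7 times in the PA2 WT libraries and by 3.88 to 5.15 times in PA3 WT, and in HIRE1del by 20.6 to 56.9 and 6.32 to 7.84 times.

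Edn1 was 3.32-fold higher in PA3 than in PA2 in WT, a log2 fold change of 1.73 (SE 0.327, edgeR adjusted p = 0.00122). In HIRE1del it was 1.81 (adjusted p = 0.0012). The enzyme gene Ece1, at 134, 124 and 136 CPM in PA3 WT, rose by 0.25 (adjusted p = 0.00431) and by 0.27 in HIRE1del, small steps against its even replicates. The receptor gene Ednra fell, from 33.5, 35.4 and 42.3 CPM in PA2 WT to 22.7, 30.9 and 30.5 CPM in PA3 WT. This difference of -0.40 (SE 0.145, adjusted p = 0.0439) was weak in the fit without a block. There the adjusted p was 0.177 without PA2 WT replicate 3 and 0.17 without PA3 WT replicate 1. It was 0.0542 to 0.0639 without PA2 WT replicate 2, PA3 WT replicate 3, PA3 HIRE1del replicate 2, or either of PA2 HIRE1del replicates 1 and 2. With the replicate number as a block, the WT difference was -0.41 (edgeR adjusted p = 0.00197). In HIRE1del the difference was -0.47 without the block (adjusted p = 0.0228). The adjusted p was then 0.0791, 0.103 and 0.0822 when PA2 HIRE1del replicate 3, PA3 HIRE1del replicate 1 or PA3 HIRE1del replicate 2 was left out. With the block it was -0.49 (edgeR adjusted p = 0.000679). In PA3 of both genotypes, Edn1 thus lay above and Ednra below its PA2 level. The ligand gene Edn3 and the receptor gene Ednrb, given below, went the other way in WT.

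Msx2 was higher in PA3 of WT, at 22.3 to 30.1 CPM against 14.7 to 16.4 CPM in PA2, with a log2 fold change of 0.74 (SE 0.143, edgeR adjusted p = 0.00152). In HIRE1del it rose by 0.44 (adjusted p = 0.0314), a call lost without PA2 HIRE1del replicate 3 (0.112) or without PA3 HIRE1del replicate 1 (0.122) or 2 (0.0571). With the replicate block the rise was 0.45 (edgeR adjusted p = 0.00735). Msx1 was read at 59.9, 56.1 and 81.8 CPM in PA3 WT and did not pass there, with 0.19 (-0.12 to 0.49). In HIRE1del it was 0.43 (adjusted p = 0.0322), at 72.8, 57.4 and 71.6 CPM in PA3 against 51.1, 48.3 and 50.0 CPM in PA2. The call was lost (adjusted p 0.0636 to 0.117) without any 1 of PA2 HIRE1del replicates 1 to 3 and PA3 HIRE1del replicates 1 and 3. The replicate block gave 0.43 in HIRE1del (edgeR adjusted p = 0.00733). That 1 genotype passed and the other did not does not show a difference: the test of the difference gave an adjusted p of 0.902 for Msx1.

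**Figure D3:**
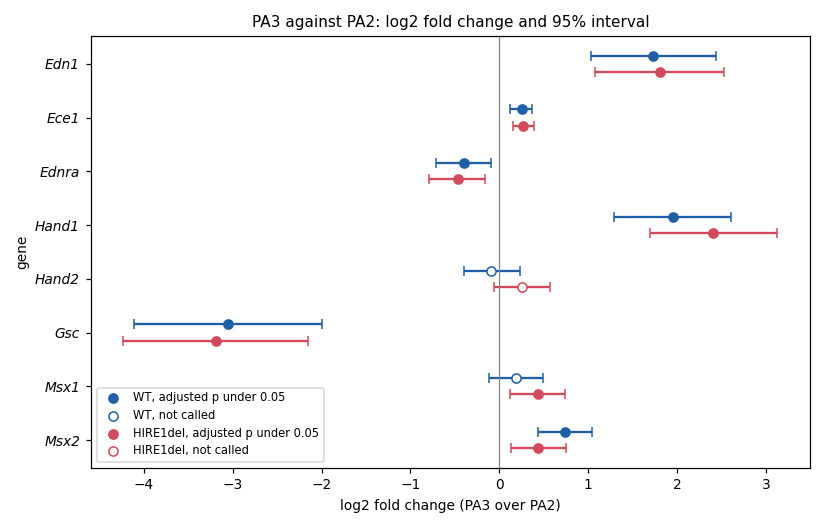
Log2 fold change of PA3 over PA2 with its 95% interval for each member, in WT (blue) and HIRE1del (red). Filled points passed an adjusted p under 0.05: Hand1 and Edn1 lie near 2 and Gsc near -3 in both genotypes, and Hand2 is open in both.

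Other cells moved with the same contrast. In PA3 of WT, 6 of 7 epithelium markers were higher than in PA2 (summed level 608 to 777 against 286 to 324 CPM) and 5 of 6 endothelium markers (335 to 359 against 273 to 290 CPM). All 6 blood markers were higher (10800 to 21500 against 1350 to 2130 CPM), as were 6 of 7 tested heart muscle markers (21.5 to 53.1 against 3.95 to 5.82 CPM, Nppa at 0 in both groups). Of the neural and glial markers 6 of 7 were higher (79.7 to 129 against 32.5 to 37.7 CPM), while pharyngeal mesoderm markers were split, 2 higher and 3 lower (106 to 119 against 88.8 to 96.7 CPM). Arch mesenchyme markers summed to 649 to 809 against 965 to 1080 CPM, with 1 higher and 3 lower. The part of these cells in the arch differences of the members, Edn1, Ednra and Hand1 included, and of the gene lists below was not tested.

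Genes known to act with the members were split in the same contrast. Of the 8 lower arch genes, 5 fell in PA3 of WT and 2 rose, where 17.4% of all genes fell and 19.1% rose. Their median log2 fold change was -1.45. Dlx5 fell by 1.48 (edgeR adjusted p = 7.49e-07) and Dlx6 by 1.42 (adjusted p = 2.5e-07), both homeobox genes that stand between the endothelin receptor and Hand2 and Gsc. Dlx3 fell by 2.35, Dlx4 by 3.64 and Cited1 by 1.71. Foxf1 rose by 0.67 and Nkx3-2, a jaw joint gene, by 1.04. The 8 upper arch genes were divided in the same way, 5 lower and 2 higher, led by Pou3f3, which fell by 3.89 from 131 to 8.66 CPM.

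BMP pathway genes (ligands, targets and inhibitors) were higher in PA3 of WT for 8 of 9 tested genes, with a median of 0.53. Of all genes, 19.1% were higher there. The ligand genes Bmp2 and Bmp4 rose by 2.08 (edgeR adjusted p = 1.74e-05) and 1.35 (adjusted p = 2.11e-06) on the log2 scale, and the BMP target Id1 by 0.72. In HIRE1del, 8 of 9 were higher as well, beside 18.7% of all genes. Of 10 tested genes of the wider endothelin list, 4 rose and 2 fell in WT (median 0.08). Ednrb, the second receptor gene, rose by 0.73 (adjusted p = 0.0346) from 6.85 to 11.4 CPM, and Furin, which makes the first cut of the endothelin precursor, by 0.57 (adjusted p = 0.000205). Mef2c, a transcription factor gene that answers endothelin in the arch, rose by 0.90 and the ligand gene Edn3 fell by 0.44.

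The stage series asked how these genes go from crest cells of PA2 to the pinna. Hand1, Hand2, Gsc and Msx2 were far lower in sorted crest of the E14.5 pinna than of E10.5 PA2, while Ece1 and Ednra were higher. Region changes together with stage in this comparison, so a fall or rise from E10.5 is not a time course of the same cells. Edn1 did not pass the filter on low values and was not tested, being listed at 0 to 5 counts in the E10.5 libraries, 1 to 2 at E12.5 and 4 to 15 at E14.5. Of the 7 members tested, 7 were called between E12.5 and E10.5 (3 higher, 4 lower), where 68.8% of all genes were (35.0% higher, 33.7% lower). Between E14.5 and E12.5 the test called 5 (2 higher, 3 lower), beside 65.7% of all genes (32.6% higher, 33.1% lower). Between E14.5 and E10.5 it called 7 (2 higher, 5 lower), beside 82.0% of all genes (42.0% higher, 40.0% lower). Groups did not overlap for 74.5%, 69.6% and 84.0% of all genes in these comparisons. Hand1 passed the filter through its E10.5 libraries alone, so it had to differ from E10.5. It could not differ between E12.5 and E14.5, where it had 0 counts. These counts are therefore a description. The comparisons share libraries. The median log2 fold change of the 7 was -3.18, 0 and -5.59 in that order, beside 0.01, -0.01 and 0.02 over all genes. The first and last medians fall on Gsc and Hand2 whether Hand1 stands at its fitted value or at its bound. The median of 0 is the empty value of Hand1 itself and is no result about the members.

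Hand2 fell at the first step and stayed low. It was read at 137, 122 and 130 CPM in replicates 1, 2 and 3 of PA2 at E10.5, at 0.966, 1.53 and 2.14 CPM in the pinna at E12.5, and at 2.69, 3.20 and 2.15 CPM at E14.5. The E10.5 libraries stood apart from both later stages. The log2 fold change from E10.5 to E12.5 was -6.37 (SE 0.188, edgeR adjusted p = 7.16e-10), 83-fold lower. From E12.5 to E14.5 it rose by 0.78 (SE 0.225, adjusted p = 0.00989), a small return that left it at -5.59 on the log2 scale against E10.5. Alternatives moved that rise between 0.55 and 1.07, with adjusted p up to 0.0438.

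Hand2os1 lies on the other strand and, in RefSeq, starts 124 bases from Hand2. It was read at 48.7, 38.9 and 50.2 CPM at E10.5. The values were 0.111, 0.392 and 0.34 CPM at E12.5 and 0.551, 1.18 and 0.657 CPM at E14.5. Hand2os1 followed the same course, with -7.31 on the log2 scale (edgeR adjusted p = 5.33e-09) and then a rise by 1.47. Over the 9 stage libraries its Pearson r with Hand2 in log2(CPM + 0.5) was 0.998, as was that of Cldn11 and Chd7, the other two nearest genes. In the 12 genotype libraries Hand2os1 lay between 47.0 and 73.9 CPM. In GENCODE the exons of the pair share 461 bases on opposite strands, while the RefSeq models share none, the start of Hand2os1 lying 124 bases from that of Hand2. The library kit is described as unstranded, so reads from shared bases cannot be assigned to 1 strand and the levels of the pair are uncertain to that extent.

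Hand1 was read at 7.33, 2.30 and 1.21 CPM at E10.5 (219 to 37 counts) and at 0 counts in all 6 later libraries. The 3 E10.5 libraries differed 6.06-fold among themselves, more than in any other group with Hand1 reads. Against the limit of 3 counts over the group, Hand1 was at least 104-fold lower at E12.5 and at least 167-fold lower at E14.5. Gsc was read at 43.0, 58.4 and 59.8 CPM at E10.5, at 7.17, 5.94 and 4.66 CPM at E12.5, and at 0.0881, 0.252 and 0.263 CPM at E14.5. The 3 stages did not overlap. The log2 fold change was -3.18 to E12.5 (SE 0.186, edgeR adjusted p = 7.93e-08) and -4.85 from there to E14.5 (adjusted p = 1.73e-07), 262-fold lower in all.

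The Msx genes parted. Msx2 was read at 16.6, 8.72 and 8.59 CPM at E10.5, at 1.00, 0.882 and 1.02 CPM at E12.5, and at 0, 0.252 and 0.153 CPM at E14.5. Its stages did not overlap and the log2 fold changes were -3.54 (SE 0.423, edgeR adjusted p = 1.96e-05) and then -2.79 (SE 0.597, adjusted p = 0.00167). Msx1 was read at 80.4, 102 and 119 CPM at E10.5, at 190, 159 and 171 CPM at E12.5, and at 62.3, 61.4 and 94.5 CPM at E14.5. It peaked at E12.5, higher by 0.78 than at E10.5 (SE 0.173, adjusted p = 0.00179), and then fell by 1.25 (adjusted p = 7.56e-05). Its net difference of -0.47 between E14.5 and E10.5 (adjusted p = 0.0259) came from overlapping groups and was lost without E10.5 replicate 2 (0.0584), E10.5 replicate 3 (0.114), E14.5 replicate 1 (0.0999) or E14.5 replicate 2 (0.104). Per kilobase of exon, Msx1 exceeded Msx2 by 6.13, 14.9 and 17.6 times in the E10.5 libraries and by 240, 229 and 212 times at E12.5.

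Ednra and Ece1 were higher in the pinna than in PA2. Ednra was read at 57.3, 70.1 and 75.8 CPM at E10.5, at 92.0, 94.0 and 89.8 CPM at E12.5, and at 107, 89.1 and 102 CPM at E14.5. It rose to E12.5, with a log2 fold change of 0.44 (SE 0.0989, edgeR adjusted p = 0.00206), after which the stages overlapped, with 0.11 (-0.10 to 0.33, adjusted p = 0.335). Ece1 was read at 82.2, 79.5 and 75.8 CPM at E10.5, at 102, 89.8 and 93.0 CPM at E12.5, and at 210, 185 and 203 CPM at E14.5. Most of its rise came late, 0.26 to E12.5 (adjusted p = 0.0059) and 1.07 from there to E14.5 (adjusted p = 2.21e-07).

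**Figure D4:**
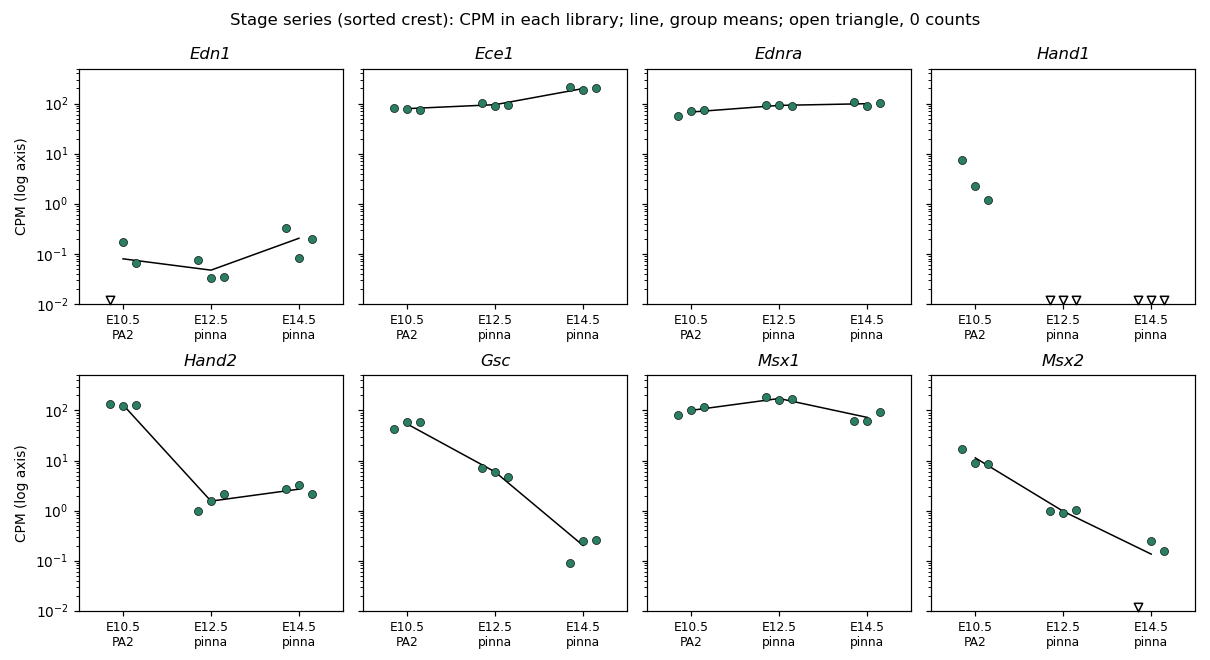
CPM of each member (vertical axis, log scale) in the 9 sorted libraries of the stage series. Points are libraries, lines join group means above 0, and open triangles at the base mark libraries with 0 counts; Hand2 drops between E10.5 and E12.5, Gsc and Msx2 at both steps, and Ece1 and Ednra end above their E10.5 level.

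Some markers of other cells moved with stage. The endothelium markers summed to 7.02 to 9.74 CPM at E10.5, 19.3 to 27.9 at E12.5 and 110 to 173 at E14.5. Of 5 tested, 1 (Kdr) was called at each step. Most of the sum in the pinna was Kdr, with means of 18 CPM at E12.5 and 141 CPM at E14.5, against 3.26 CPM at E10.5. The epithelium sum was 11.3 to 13.1, 11.1 to 14.1 and 17.7 to 27 CPM, the blood sum 1.74 to 7 CPM at E10.5 and 0.947 to 7.2 CPM later (Hbb-bh1 at 0 in the pinna), and the heart muscle sum 1.2 to 3.56 CPM over all 9 (Nppa at 0 throughout). The mesoderm sum was 3.33 to 7.53 CPM at E10.5 and 0.547 to 1.87 CPM later (Tbx1 at 0 throughout), and the neural and glial sum 42.3 to 56.7 CPM throughout. Arch mesenchyme markers summed to 1510 to 1740 CPM at E10.5 and 3260 to 3960 CPM in the pinna. Most of that was Pdgfra (means 1010, 2310 and 3000 CPM by stage). Against E10.5, 4 of these 6 markers were called higher and 1 lower at each later stage (Tfap2a at E12.5, Prrx1 at E14.5). Of 5 tested epithelium markers, 3 were called higher and 2 (Epcam, Krt18) lower at E14.5 than at E10.5. Tfap2b and Trp63, among those higher, passed the filter through E14.5 libraries alone. The part of these cells in the stage differences was not tested.

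Of 8 lower arch genes, 5 were lower and 2 higher at E12.5 than at E10.5, and 8 were lower at E14.5 (median -3.81, beside 0.02 over all genes), where 40.0% of all genes were lower. Foxf1 and Nkx3-2 passed the filter on low values through E10.5 libraries alone, so they had to be lower later and these counts and the median are a description. Foxc1 fell by 6.97 (edgeR adjusted p = 2.1e-11) from E10.5 to E14.5, Cited1 by 4.65 and Dlx3 by 2.96. Foxf1 had a mean of 34.3 CPM at E10.5 and held 0 to 6 counts a library at E14.5. Nkx3-2 was at 0 counts at E14.5, at least 233-fold lower. Dlx6 rose by 0.99 to E12.5 (adjusted p = 2.33e-07) and Dlx5 by 0.22 (adjusted p = 0.0369), and both ended below their E10.5 level, by 0.41 and 0.81. Of the 8 upper arch genes, 7 were lower at E14.5 than at E10.5 too.

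Of 11 genes of the wider endothelin list, 8 were higher and 1 lower at E14.5 than at E10.5 (median 0.52), where 42.0% of all genes were higher. Edn2 passed the filter through E14.5 libraries alone, so it had to be higher there. Ednrb rose from 6.69 to 66.4 CPM, by 3.31 on the log2 scale (edgeR adjusted p = 1.88e-08), and Edn3, the ligand gene best known for its pairing with Ednrb in melanocyte and enteric crest, from 34.8 to 115 CPM, by 1.72 (adjusted p = 1.2e-09). Edn2 had 0 counts at E10.5 and 1.31 CPM at E14.5, at least 39.2-fold higher, and Mef2c rose by 1.64. Of 9 tested BMP genes, 6 rose and 3 fell. The BMP antagonist gene Grem1 rose by 4.29 from 7.79 to 152 CPM, and Bmp4 rose by 1.52.

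**Figure D5:**
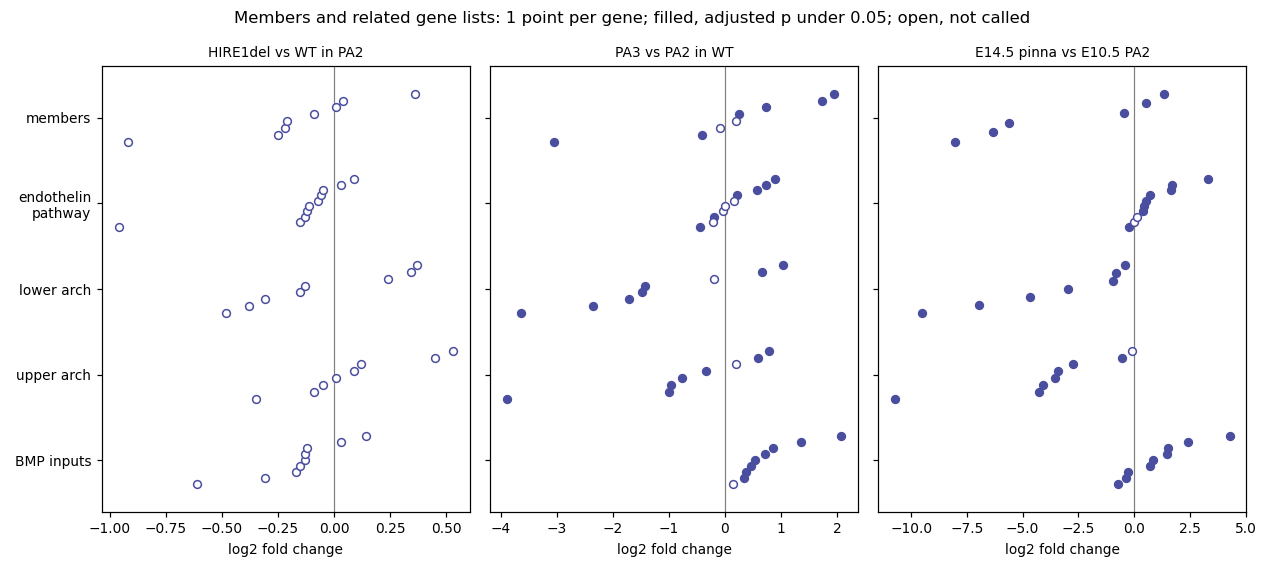
Log2 fold change of the members and of 4 related gene lists in 3 comparisons (horizontal axes differ), 1 point per gene; filled points passed an adjusted p under 0.05 and genes at 0 in a group are not drawn. No point is filled for HIRE1del against WT in PA2, and most BMP genes lie above 0 in PA3 against PA2. All drawn lower arch genes lie below 0 at E14.5 against E10.5. Foxf1 is among these and passed the filter through E10.5 libraries alone.

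Set side by side, the 7 groups ordered differently for each member, as a description across tables that were made separately. Edn1 was highest in PA3 of both genotypes (means 8 and 7.1 CPM, overlapping), then in PA2 (2.42 and 2.03 CPM, overlapping), and at or below 0.33 CPM in every sorted library. Ece1 was highest at E14.5 (199 ± 13 CPM, SD, n = 3), apart from PA3 of WT at 131 CPM. Ednra was highest in the pinna, at 99.3 and 91.9 CPM, which overlapped, and lowest in PA3. Hand1 was highest in PA3, and its values in sorted PA2 crest at E10.5 (1.21 to 7.33 CPM) overlapped those of PA3 HIRE1del and of PA2 of both genotypes. Hand2 (130 CPM) and Gsc (53.7 CPM) were highest in sorted PA2 crest, above every library of the genotype series. Msx1 was highest in the E12.5 pinna (173 CPM), and Msx2 in PA3 of WT (26.2 CPM), which overlapped PA3 of HIRE1del.

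The genes with the most similar profiles were picked by Pearson r of log2(CPM + 0.5), with genes of low average level left out. These are descriptions over libraries that share arches and stages. Over the 12 genotype libraries, Marveld3 was nearest to Edn1 (r = 0.992), Atp10a to Ece1 (0.968), Dzip1 to Ednra (0.985), Smad9 to Hand1 (0.982), Frmd6 to Gsc (0.985), Orai1 to Msx1 (0.935) and Pofut2 to Msx2 (0.959). The nearest to Hand2, Ifnar2, reached 0.858, the lowest of the 8. Over the 9 stage libraries, Tmem131l was nearest to Gsc (0.999), Cstf3 to Msx2 (0.997), followed by the BMP antagonist gene Bambi and by Hey1 (both 0.996), Fibp to Msx1 (0.977), Fkbp9 to Ece1 (0.997), Rps6ka3 to Hand1 (0.986) and Gm38666 to Ednra (0.987).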

How the data were processed

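RNA-seq gene counts were deposited by the authors as raw counts in 2 tables, with 24594 genes each and 18 without a symbol. Reads were demultiplexed with bcl2fastq (2.17 and 2.20 in the submitters' processing notes), aligned with QuasR and Rhisat2 to GRCm38 (mm10), and counted over UCSC known genes with reads on the opposite strand, although the libraries are described as unstranded. Every value column was used (0 left out). From the counts, genes with 1 CPM or more in at least 2 libraries were kept (14383 in the genotype and 13438 in the stage series). Each table was fitted in edgeR 4.0.16 (R 4.3.3) with TMM, 1 mean per group, glmQLFit and glmQLFTest, two-sided, Benjamini-Hochberg adjusted over all genes kept, at 0.05. Intervals cover 95%. The fit was run beforehand on counts simulated with the same dispersion for every gene. That setting does not speak for members whose replicates vary more, such as Gsc and Hand1. Samples were grouped by their labels, which state biological replicates. All 8 members were named, the called genes of fixed lists (at most 5 a direction), and the 3 genes of highest r to each member. The members and lists were chosen with earlier results of these data known. Numbers pair PA2 with PA3 within a genotype (same-number correlations of deviations 0.257 to 0.456) but not genotypes or stages. Alternatives were DESeq2 1.42.0, limma-voom (limma 3.58.1), other scaling and filters, separate fits, a replicate block, and leaving out each library. Exon lengths came from the tables, positions from GENCODE M21 (GRCm38) and promoters from RefSeq.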

Additional observations from a re-analysis of the deposited data

How the results depend on the processing

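Of 1174 values of single members under the alternatives, 1113 kept direction and side of the threshold, 25 lost a call, 0 gained one and 36 changed sign, all of these last on values that passed no test. Requiring 1 CPM in every library took genes with a lower library out of testing, which left 3 members called between the arches in WT (6 before), 4 from E10.5 to E12.5 (7), 3 from E12.5 to E14.5 (5) and 4 from E10.5 to E14.5 (7). Ednra between the arches in WT then had an adjusted p of 0.064, and 0.0517 with library totals only, and Msx2 in HIRE1del 0.0519 with only the compared groups fitted. With each library left out in turn, members called ranged from 5 to 6 between the arches in WT, from 4 to 7 in HIRE1del (4 without PA2 HIRE1del replicate 3 or PA3 HIRE1del replicate 1), and from 6 to 7 between E14.5 and E10.5. With library totals only, Ednra was 0 in PA2 between genotypes and -0.01 from E12.5 to E14.5. With limma-voom, the difference between the arches in the deletion effect was 0.03 for Edn1 and -0.20 for Gsc. Leaving out single libraries changed the sign of these values, given as the range over the libraries left out. In PA2 between genotypes, Ednra ran from -0.06 to 0.12, Gsc from -0.19 to 0.59 and Msx2 from -0.08 to 0.20. In PA3, Edn1 ran from -0.43 to 0.14, Ednra from -0.24 to 0.04, Gsc from -0.21 to 0.76 and Msx1 from -0.08 to 0.21. For the difference between the arches, Edn1 ran from -0.39 to 0.19, Ece1 from -0.06 to 0.02, Ednra from -0.02 to 0.25 and Gsc from -0.41 to 0.56. Between the arches in WT, Hand2 ran from -0.28 to 0.05. The causes were not tested.

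With the replicate number as a block, no call among the members changed. Hand1 in PA2 between genotypes was -0.92 (edgeR adjusted p = 0.371). Over all genes the block called 105 in PA2 (63 without it), 54 in PA3 (31) and 26 for the difference between the arches (7), and DESeq2 called 162, 94 and 29. Leaving out a library moved these counts from 33 to 78, 8 to 34 and 3 to 12. In the stage series, depth limits Edn1, Hand1 in the pinna, Hand2os1 at E12.5, and Gsc and Msx2 at E14.5. There 1 library holds 0 to 15 counts.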

Other observations

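Some of the pathway genes that passed no test between genotypes had values in PA2 that did not overlap, as did 13.2% of all genes. The ones given here were picked after their values were seen. Ednrb, the second endothelin receptor gene, was read at 6.62, 7.15 and 6.77 CPM in PA2 WT and at 2.67, 3.39 and 4.51 CPM in PA2 HIRE1del, a log2 difference of -0.96 (edgeR adjusted p = 0.251). In PA3 it was read at 10.9, 12.1 and 11.2 CPM in WT and at 7.18, 6.75 and 14.6 CPM in HIRE1del, where the groups overlapped (-0.26, adjusted p = 0.776). The crest and glial gene Sox10 had means of 3.97 and 2.20 CPM in PA2 (-0.85, adjusted p = 0.51), and its part in the Ednrb values was not tested. Dlx5 was read at 30.3, 32.8 and 33.0 CPM in PA2 WT and at 38.1, 41.3 and 44.9 CPM in PA2 HIRE1del (0.37, adjusted p = 0.209). Dlx2 had means of 51 and 69.7 CPM (0.45, adjusted p = 0.0721) and Dlx1 of 145 and 210 CPM (0.53, adjusted p = 0.143). Dlx3 and Dlx4 were lower in HIRE1del, also without overlap, Dlx3 at 88.8, 89.8 and 96.1 CPM in PA2 WT and 62.8, 75.9 and 72.2 CPM in PA2 HIRE1del (-0.38, adjusted p = 0.568), and Dlx4 at 15.6, 14.8 and 15.9 against 11.1, 13.5 and 12.7 CPM (-0.31, adjusted p = 0.808). None of these differences reached the threshold.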
